A study of Rattus norvegicus with 40 samples.

Results

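The circadian clock genes of the rat kidney were followed across 2 strains, 4 vehicles and 6 antihypertensive drugs. The set held 10 genes: the period genes Per1, Per2 and Per3, the cryptochromes Cry1 and Cry2, the nuclear receptor genes Nr1d1 and Nr1d2, the output gene Dbp, and the activator genes Npas2 and Clock. Every probe that the series' probe gene table annotates to them was taken, so no measured value chose a probe. All 10 genes were on the array, with 15 probes in all, among 12198 genes that have a probe with a single symbol. All 15 probes were tested, since each had good scanner flags in 1 or more whole groups, as were 24993 of the 33849 probes of the array.

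The molecular clock is a transcriptional feedback loop that runs in nearly every cell, the tubule cells of the kidney included. BMAL1, paired with CLOCK or its relative NPAS2, binds E-box elements and drives the period and cryptochrome genes, whose proteins return to the nucleus and inhibit that pair. The same pair drives the REV-ERB genes Nr1d1 and Nr1d2, whose proteins repress Bmal1 and Npas2 through ROR elements, and Dbp, whose protein binds D-box elements in genes such as the period genes. Transcripts driven through E-boxes and those repressed by REV-ERB therefore peak at different times of day, and in the kidney the clock is known for its part in the daily rhythm of sodium and water handling.

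Kidneys came from male rats of 16 weeks, either SHRSP/Izm, a spontaneously hypertensive and stroke-prone strain, or WKY/Izm, its normotensive counterpart. In each strain, groups received H2O, Solvent A (PEG300 EtOH NaHCO3), Solvent B (NaOH), Solvent C (0.5% MC), or a drug in mg per kg per day: candesartan 5, an angiotensin receptor blocker; chlorothiazide 20, a thiazide diuretic; carvedilol 50, a beta and alpha-1 blocker; enalapril 20, an inhibitor of angiotensin-converting enzyme; amlodipine 20, a calcium channel blocker; or hydralazine 10, a vasodilator. Each of the 20 groups had 2 CodeLink arrays, and each label named 2 animals, without saying whether their RNA was pooled. The labels state neither the time of day at which kidneys were taken nor how long treatment lasted.

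Levels are log2 of the quantile-normalised intensity, on a scale where an array's median is near 0, and they are compared between arrays for 1 probe and never between probes. Changes are log2 differences ± standard error from limma, and a probe is called when its Benjamini-Hochberg adjusted p, over all 24993 probes, is under 0.05. The good flag was carried by 59.3% to 72.6% of the probes on an array. The proximal tubule genes Slc34a1, Lrp2 and Kap and the distal genes Umod, Slc12a3 and Aqp2 were flagged good on 34 to 40 of 40 arrays, and the adrenal gene Cyp11b1 on 0, with its probe at the floor on all 40. The fat genes Adipoq and Cidec and the red cell gene Alas2 were flagged good on all 40 arrays. Arrays were scanned in 6 sessions, numbered by date, on slides of 3 series. Each vehicle was scanned with both strains in a session that held no other vehicle: H2O in session 1, Solvent B in session 3, Solvent C in session 4 and Solvent A in session 6. Solvents B and C were on slides of the same series, and H2O and Solvent A each on another. The code prefixes of the animals also differed between the vehicles in SHRSP, and in WKY between H2O and the others. Vehicle, scan session and any difference in sampling time between them cannot be told apart, nor can slide series except between Solvents B and C.

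Promoter windows of these genes, from RefSeq on build GRCr8, run from 250 bases before to 50 after a gene's start, 5′ to 3′ on the gene's strand. Of the 10 genes, 9 had a window, 11 windows in all. They were searched on both strands for the E-box CACGTG, the variant CACGTT, the D-boxes TTATGTAA and TTACGTAA, and the ROR element cores TAGGTCA and TGGGTCA, none of which overlapped another in these windows. Matches were found in 4 of the 11 windows, those of Per2, Cry2 and Nr1d1 (both). The windows of Per2 and Nr1d1 are shown for the E-box arm of the loop, and that of Bmal1, the partner of Npas2 and Clock, for the ROR arm. Capitals mark the matches.
Per2 (chr9:99496944-99497243, minus strand): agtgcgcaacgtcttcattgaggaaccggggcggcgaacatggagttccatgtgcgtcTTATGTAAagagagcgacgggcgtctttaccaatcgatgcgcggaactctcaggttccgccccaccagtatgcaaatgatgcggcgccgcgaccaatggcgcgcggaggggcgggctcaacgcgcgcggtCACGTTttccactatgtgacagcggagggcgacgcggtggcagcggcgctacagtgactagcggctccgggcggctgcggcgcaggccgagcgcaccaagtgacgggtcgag
Nr1d1, the second start (chr10:84229405-84229704, minus strand): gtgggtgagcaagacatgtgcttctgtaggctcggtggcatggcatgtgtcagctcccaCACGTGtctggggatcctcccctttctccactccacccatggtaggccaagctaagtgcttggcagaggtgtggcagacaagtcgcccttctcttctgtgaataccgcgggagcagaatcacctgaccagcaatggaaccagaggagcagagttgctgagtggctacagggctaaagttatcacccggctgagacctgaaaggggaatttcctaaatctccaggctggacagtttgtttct
Bmal1 (chr1:176766078-176766377, plus strand): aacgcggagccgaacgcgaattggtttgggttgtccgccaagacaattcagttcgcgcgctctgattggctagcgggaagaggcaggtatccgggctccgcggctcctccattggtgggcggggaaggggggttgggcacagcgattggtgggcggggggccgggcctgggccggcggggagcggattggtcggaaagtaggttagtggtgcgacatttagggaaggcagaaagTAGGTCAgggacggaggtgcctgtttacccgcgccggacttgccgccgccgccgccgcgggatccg
The Per2 window holds a D-box whose first base lies 192 bases before the start and the variant CACGTT 62 bases before it. The Nr1d1 window holds an E-box 191 bases before the start, and the Bmal1 window a ROR element core 16 bases before it. Of 33469 such windows of all genes, 6.42% hold the E-box, 4.83% the variant, 1.01% either D-box and 6.6% either ROR core. A match is a description of the letters and does not show that a factor binds there, and no match says only that these letters are not in the window.

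The first comparison was among the 4 vehicles, on 16 arrays. Clock genes differed between vehicle groups in both strains, with the widest gap, for Dbp and Npas2, between Solvent B and Solvent C. Dbp, Per2, the first Nr1d2 probe and the brighter Cry2 probe were higher with Solvent B than with Solvent C, and Npas2 was lower. The second Nr1d2 probe was not called between them by the limma fit. Its means with Solvents B and C were 3.441 and 3.736 in SHRSP, and 3.725 and 3.711 in WKY. By the moderated F test over the 4 vehicles, 12 of 15 probes, of 8 genes, were called, against 51.6% of all probes. Within SHRSP 8 of 15 were called, against 34.2% of all probes, and within WKY 11 of 15, against 25.5%. Of the 12, the dimmest Cry2 probe and the dim Clock probe had no good flag in at least 1 group of a strain and a vehicle, so they passed the filter through other groups, and 10 were left without them. With session as a random block the counts became 4 in SHRSP and 5 in WKY, and over both strains the 12 became 4, namely Dbp, Npas2, the brighter Per2 probe and the first Nr1d2 probe. In whole kidney, fewer cells of a type and less RNA per cell cannot be told apart.

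Dbp encodes a PAR bZIP transcription factor and is a direct output of the loop. In SHRSP its levels were 4.46 and 4.65 with H2O, 4.82 and 4.67 with Solvent A, 5.66 and 5.79 with Solvent B, and 3.32 and 3.36 with Solvent C. In WKY they were 5.17 and 4.93, 5.47 and 5.28, 6.07 and 6.05, and 3.83 and 4.04 in the same order. Within each strain, all Solvent B arrays lay above all others and all Solvent C arrays below. Averaged over strains, Dbp was lower with Solvent C than with Solvent B by 2.26 ± 0.12 on the log2 scale, or 4.78-fold (adjusted p = 3.42e-11). From H2O it differed by 1.09 ± 0.12 with Solvent B and by -1.17 ± 0.12 with Solvent C, both called. The difference between Solvent A and H2O, 0.26 ± 0.12, was not called (adjusted p = 0.125), so these neighbours in the order were not separated.

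Npas2, which pairs with BMAL1, ran the other way. In SHRSP it stood at 2.02 and 1.75 with H2O, 2.12 and 2.15 with Solvent A, 1.07 and 0.85 with Solvent B, and 2.87 and 2.86 with Solvent C. In WKY it stood at 1.76 and 1.65, 1.56 and 1.58, 0.21 and 0.14, and 2.45 and 2.33. Solvent C arrays were above and Solvent B arrays below every other vehicle array of their strain. Npas2 was 2.06 ± 0.10 higher with Solvent C than with Solvent B, or 4.17-fold (adjusted p = 1.24e-11). Bmal1, which is no member of the set but shares this place in the loop, ran as Npas2 did. Its brighter probe read 0.10 to 0.56 on the 4 Solvent B arrays and 2.79 to 3.22 on the 4 Solvent C arrays.

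Among the repressors of the loop, the brighter Per2 probe (GE1194585) followed Dbp. It read 5.24 to 5.44 on the 4 Solvent B arrays, 4.35 to 4.73 on the 8 arrays with H2O or Solvent A, and 3.76 to 4.14 on the 4 Solvent C arrays, with no overlap. The change from Solvent B to Solvent C was -1.34 ± 0.12 (adjusted p = 1.38e-07), and on the dimmer probe (GE13056) -0.42 ± 0.11 (adjusted p = 0.0194). The first Nr1d2 probe fell by 0.75 ± 0.06, Cry2 by 0.44 ± 0.08 and Nr1d1 by 0.28 ± 0.08 in the same comparison. In total 8 of 15 probes were called between these vehicles, 2 higher and 6 lower with Solvent C, against 11.7% of all probes. Leaving out 1 array left 5 to 9, with 5 for SHRSP Solvent B replicate 2, SHRSP Solvent C replicate 2 and WKY Solvent B replicate 1. The median size of the difference was 0.42 over the 15 probes and 0.12 over all probes. Of the 2 that were higher, the other was the dim Clock probe GE20821, at 0.47 ± 0.15. Of the 8, 4 were called with session as a random block, and the dimmer Per2, the Cry2, the Nr1d1 and the Clock probe were not.

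**Figure D1:**
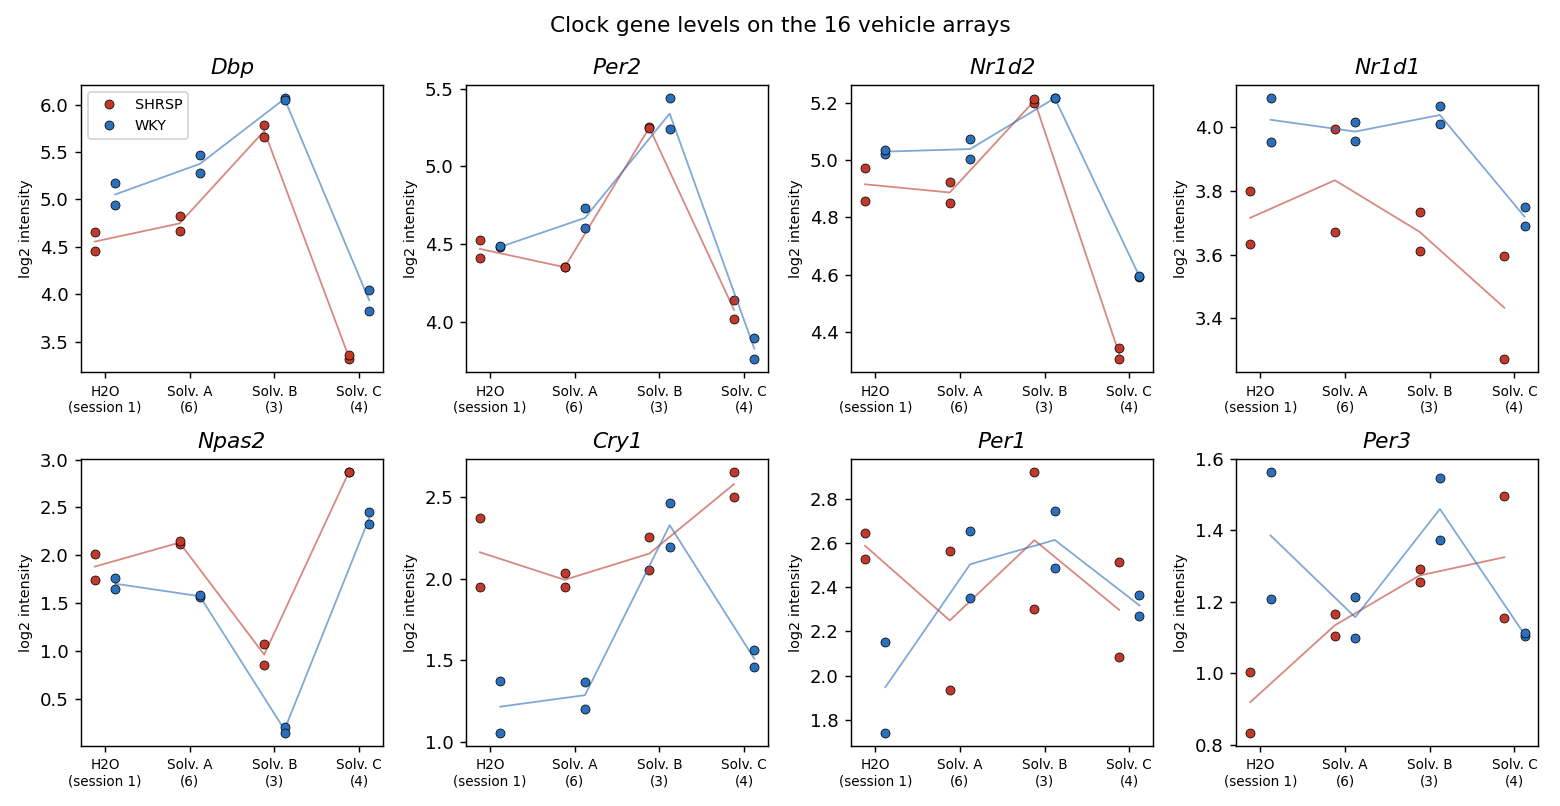
Levels (log2 intensity) of 8 clock genes, each on its brightest probe, on the 16 vehicle arrays by vehicle, with the scan session in brackets. Points are arrays, red for SHRSP and blue for WKY, and lines join group means. Dbp, Per2 and Nr1d2 are highest with Solvent B and lowest with Solvent C, and Npas2 is the reverse.

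The comparisons with H2O gave 8 of 15 probes for Solvent B, against 23.9% of all probes, 8 for Solvent C, against 29%, and 3 for Solvent A, against 24.8%. The 3 for Solvent A were a Clock probe (GE1223313, -0.41 ± 0.09), the second Nr1d2 probe (GE1287797, -0.23 ± 0.05) and the dimmest Cry2 probe, which had no good flag on the 4 H2O arrays and whose change therefore has no size here. The third Nr1d2 probe, 1 of the 8 for Solvent B, also had no good flag with H2O, and its call was lost without any 1 of the 8 arrays. The dim Clock probe, 1 of the 8 for Solvent C, had none in WKY with H2O. With session as a random block the counts became 2 for Solvent B, 3 for Solvent C and 0 for Solvent A. Fitted on the compared groups alone, those for Solvents C and A were 4 and 5, and in the authors' deposited series table that for Solvent A was 1. Dbp and Npas2 were called with Solvents B and C and not with Solvent A, and the count for Solvent A is near the share of all probes.

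Other genes followed the vehicles less closely. Per1, a period gene that also responds quickly to glucocorticoids and other signals, read 1.74 to 2.92 on the 16 vehicle arrays and was not called over the vehicles (adjusted p = 0.418). Per3, a period gene, read 0.83 to 1.56 and was not called either (adjusted p = 0.164). The probes of Nr1d2 did not run together. The first, GE18226, fell by 0.51 ± 0.06 from H2O to Solvent C, while the second, GE1287797, rose by 0.20 ± 0.05, both called, the second not with session as a random block, and the third, GE21932, was flagged good on 24 of 40 arrays. Which transcripts these probes read was not tested.

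The share of a probe's variance on the vehicle arrays that lay between the vehicles, after removing strain means, was 98.5% for Dbp, 97% for Npas2, 96.2% for the first Nr1d2 probe and 94.4% for the brighter Per2 probe. Among 24254 probes with such a share, these stood at the percentiles 100, 99.9, 99.7 and 99.1. Per1 had 20.8% and Per3 23.7%, and the median was 74.6% over the 15 probes and 56.4% over all. Over the replicate arrays of a group, the root mean square difference had a median of 0.21 on the log2 scale for the 15 probes and 0.20 for all. The third Nr1d2 probe, at or near the floor on many arrays, was at 0.45, the percentile 96.8, and Per1, which was well above the floor, at 0.42, the percentile 95.5. The widest Per1 pair was SHRSP candesartan, at 1.66 and 2.57, 2 arrays of the same session. Among the 17 groups scanned within a session, Per1 stood at the percentile 98.7.

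**Figure D2:**
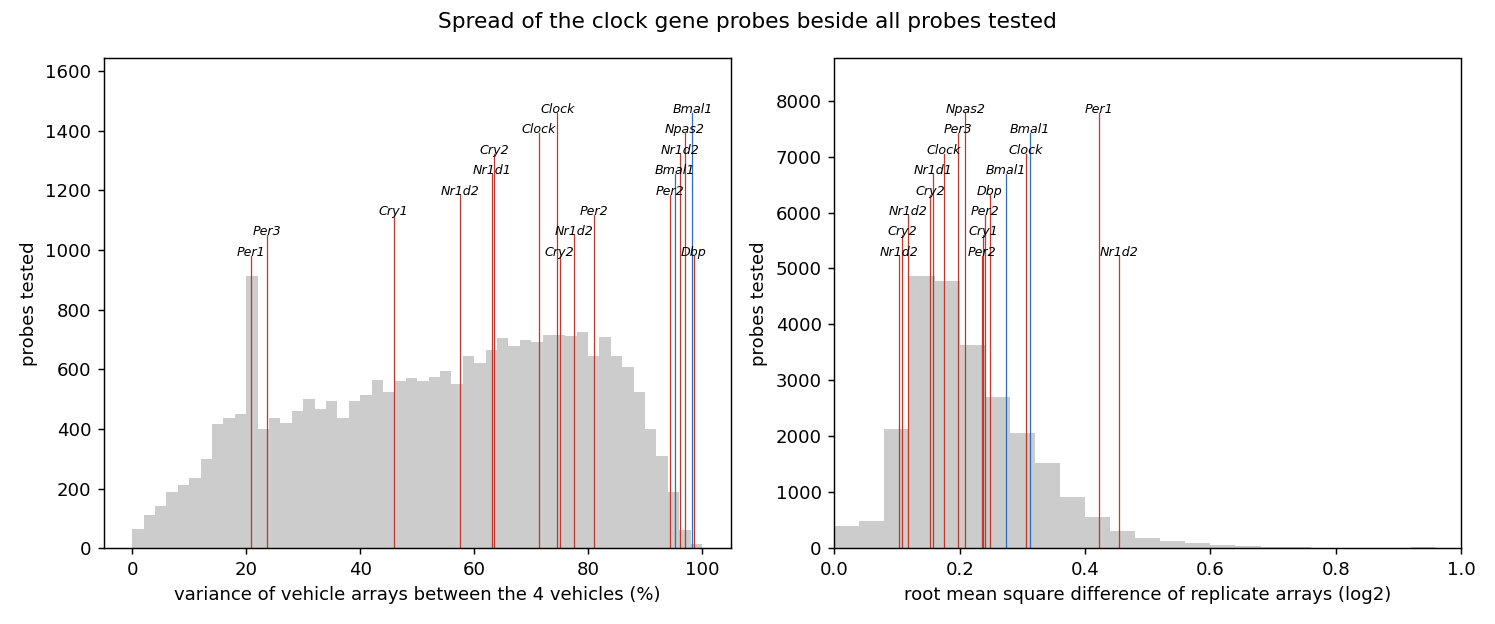
Left, the share of variance on the vehicle arrays that lies between the 4 vehicles (percent), right, the root mean square difference of replicate arrays (log2), for all probes tested (grey bars, number of probes). Red lines mark the 15 clock gene probes and blue lines the Bmal1 probes. Dbp, Npas2, Bmal1, Per2 and Nr1d2 lie at the right end on the left side, and Per1 and the dimmest Nr1d2 probe are the farthest right of the 15 on the right side, where values above 1 are not drawn.

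Drug arrays were set beside the vehicle arrays scanned with them. In session 3, which held Solvent B and chlorothiazide, Dbp read 5.66 to 5.95 in SHRSP and 6.02 to 6.15 in WKY, above all arrays of the same strain in other sessions. Npas2 read 0.70 to 1.07 in SHRSP and -0.28 to 0.21 in WKY there, below all other arrays of its strain. In session 4, with Solvent C and carvedilol, Dbp read 3.32 to 3.91 in SHRSP and 3.39 to 4.04 in WKY. In SHRSP the carvedilol arrays, at 3.889 and 3.912, lay above the Solvent C arrays, at 3.316 and 3.355. The SHRSP range of session 4 overlapped session 1, where enalapril arrays read 4.01 and 3.85 and H2O arrays 4.46 and 4.65. The WKY range of session 4 did not overlap any other session. Sessions 3 and 4 were on slides of the same series, and the good flag was carried by 67.5% to 70.5% of probes in session 3 and 59.7% to 63.4% in session 4. The part of signal quality in the clock gene differences was not tested.

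**Figure D3:**
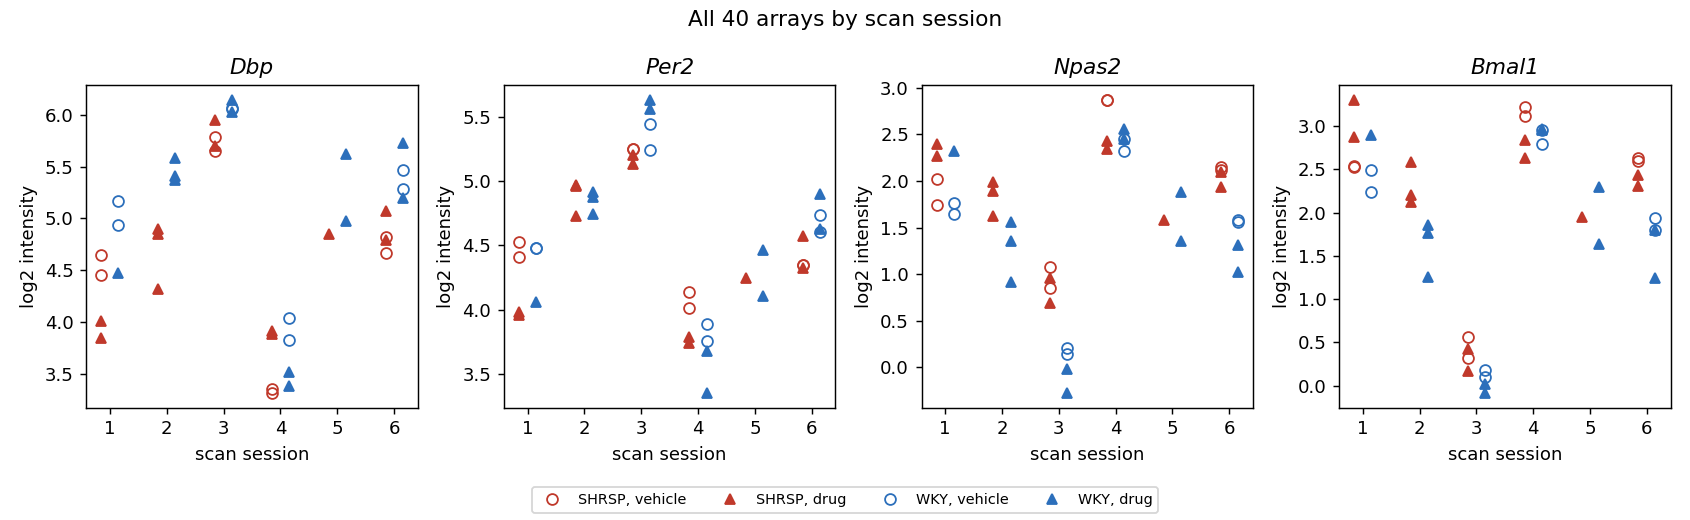
Levels (log2 intensity) of Dbp, Per2, Npas2 and Bmal1, each on its brightest probe, on all 40 arrays by scan session. Open circles are vehicle arrays and triangles drug arrays, red for SHRSP and blue for WKY. Session 3 is high for Dbp and low for Npas2 and Bmal1, and session 4 is low for Dbp and high for Npas2 and Bmal1, for vehicle and drug arrays alike.

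In 3 groups the 2 arrays were scanned in different sessions. In WKY enalapril, Dbp read 4.47 in session 1 and 4.98 in session 5, and Npas2 read 2.32 and 1.88. In WKY hydralazine, Dbp read 5.59 in session 2 and 5.62 in session 5, and Npas2 0.92 and 1.35. In SHRSP hydralazine, Dbp read 4.89 and 4.85 and the brighter Per2 probe 4.97 and 4.24. Over these 3 groups the median root mean square difference was 0.26 for the 15 probes and 0.25 for all.

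Differences between replicate arrays were also set against those of Dbp, over 20 groups, as a description that holds no test. The brighter Bmal1 probe ran opposite to Dbp (Pearson r = -0.77), as did Npas2 (r = -0.58), each in 13 of 20 groups. Nr1d1 ran with Dbp (r = 0.45). Without the 2 groups of largest Dbp difference these were -0.66, -0.55 and 0.37. On their brightest probes, Per3 had r = 0.37, Per2 0.32, Cry2 0.29, Clock 0.16 and Cry1 -0.29. Without the same 2 groups these were 0.08, 0.13, 0.295, 0.19 and -0.11. The first Nr1d2 probe had r = 0.54, which fell to 0.23 without the 2 groups of largest Dbp difference, and the second had r = -0.32. The replicates share strain, drug and, in 17 groups, session, so these values describe spread between animals and arrays. Of 8855 named probes compared, Sox18 (r = 0.79) and Mcrs1 (r = 0.78) were most alike to Dbp, and Rcan1 (r = -0.78) and Bmal1 most opposite. Among the partner and output genes, Bhlhe41, an E-box repressor, had r = 0.70, Tef, a relative of Dbp, 0.64, and Nfil3, a repressor at D-boxes, -0.48. Per1 differed from this arm (r = -0.44 with Dbp). Its replicate differences ran with those of Ddit4 (r = 0.72), Jun (r = 0.72), Cebpd (r = 0.72) and Dusp1 (r = 0.70), genes of the glucocorticoid and immediate early lists, a comparison chosen after its spread was seen. Over the 9 measured glucocorticoid genes the median r was 0.57, with 8 above 0 and a range of -0.08 (Fkbp5) to 0.72. Over the 13 immediate early genes it was 0.55, with 11 above 0 and a range of -0.08 (Fosl1) to 0.72. For the 10 clock partners it was 0.18, with 8 above 0 and the highest at 0.57 (Nfil3). For the 11 output genes it was 0.05, with 7 above 0 and the highest at 0.60 (Cdkn1a). The r with Per1 over all probes was not computed.

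Genes around the loop were taken from 2 further lists. Of 10 measured clock partners, 7 were called over the vehicles, against 51.6% of all probes, and 5 between Solvent C and Solvent B, against 11.7%: Bmal1 (2.73) and Nfil3 (1.03) were higher with Solvent C, and Bhlhe41 (-1.06), Csnk1d, a kinase of the PER proteins (-0.50), and Bhlhe40 (-0.46) lower. Of 11 measured output genes, 10 were called over the vehicles, against the same 51.6%. Between Solvent C and Solvent B, 4 were called, against 11.7%, with the cell cycle kinase gene Wee1 at -0.82, Tef at -0.80, the ubiquitin protease gene Usp2 at -0.57 and the cell cycle inhibitor gene Cdkn1a at 0.82. The median change was -0.09 for the partners and -0.20 for the output genes, against 0.00 for all probes. Of 6 tested kidney segment genes, Umod, Slc12a3 and Aqp2 were called over the vehicles, and none between Solvents B and C. The fat genes Adipoq and Cidec and the red cell gene Alas2 were also called over the vehicles, though not between Solvents B and C. The summed intensity of both fat genes, of 3 listed, was 43.6 to 44.5 with Solvent B and 36.2 to 46.2 with Solvent C in SHRSP, and 40.0 to 45.2 and 40.3 to 42.3 in WKY. Alas2, 1 measured of 3 listed red cell genes, was at 3.61 to 3.85 and 3.81 to 4.73 in SHRSP, and 3.72 to 3.87 and 5.24 to 5.61 in WKY. Their part in the clock gene differences was not tested.

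The second comparison was SHRSP against WKY, 8 vehicle arrays each. Cry1 and Npas2 were higher in SHRSP, and Dbp, Nr1d1, Nr1d2 and the dimmer Per2 probe lower. In all, 6 of 15 probes were called, of 6 genes, against 21.8% of all probes. The median size of the difference was 0.12 over the 15 probes and 0.09 over all. Of 6 kidney segment genes, the distal genes Umod (0.28) and Slc12a3 (0.38) were also called, both higher in SHRSP, and their part in the clock gene differences was not tested.

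Cry1, a repressor of the CLOCK and BMAL1 pair, had the largest strain difference among the 15 probes. It ranged from 1.95 to 2.66 in SHRSP (median 2.16) and from 1.06 to 2.46 in WKY (median 1.42), so the strains overlapped. The overlap came from the WKY Solvent B arrays, at 2.19 and 2.46. SHRSP minus WKY was 0.64 ± 0.08, or 1.56-fold (adjusted p = 2.17e-06). Dbp was at a mean of 4.59 ± 0.91 (SD, n = 8) in SHRSP and 5.11 ± 0.83 in WKY, which overlapped across vehicles and not within any of them. Its difference was -0.52 ± 0.09, or 1.43-fold lower in SHRSP (adjusted p = 6.9e-05). Npas2 was higher by 0.50 ± 0.07 (adjusted p = 1.21e-05), at a mean of 1.96 ± 0.74 against 1.46 ± 0.86. Bmal1 was also higher in SHRSP, by 0.38 and 0.36 on its probes.

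Among the other repressors, Nr1d1 read 3.27 to 4.00 in SHRSP and 3.69 to 4.09 in WKY, a difference of -0.28 ± 0.06 (adjusted p = 0.000562). The first Nr1d2 probe differed by -0.14 ± 0.04 (adjusted p = 0.0224), and without quantile normalization, in the authors' deposited series table and without any 1 of 3 arrays (SHRSP H2O replicate 2, SHRSP Solvent A replicate 1, WKY Solvent A replicate 2) it was not called. Per2 gave different answers on its probes, -0.35 ± 0.08 on the dimmer one (adjusted p = 0.00278) and -0.04 ± 0.08 on the brighter (adjusted p = 0.793). Per1 (0.09 ± 0.14), Per3 (-0.11 ± 0.07), Cry2 (0.01 ± 0.05) and Clock (-0.11 ± 0.06 on its brighter probe) were not called.

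Under single vehicles, 2 arrays against 2, fewer probes were called. With H2O there were 2 of 15, against 10.1% of all probes, namely Cry1 (0.95 ± 0.16) and Per3 (-0.47 ± 0.14). With Solvent A there were 3, against 7.39%: Cry1 (0.71 ± 0.16), Dbp (-0.63 ± 0.17) and Npas2 (0.56 ± 0.14). With Solvent C the same 3 genes were called, against 6.9%, at 1.07 ± 0.16, -0.60 ± 0.17 and 0.48 ± 0.14. With Solvent B there were 3, against 7.97%: Npas2 (0.79 ± 0.14), Nr1d1 (-0.37 ± 0.11) and the second Nr1d2 probe (-0.28 ± 0.08). Leaving out any 1 array left 0 or 1 called with Solvent A, and 1 or 2 with each other vehicle. Fitted on the compared groups alone, the counts were 0 with H2O, 1 with Solvent A and 0 with Solvents B and C. In the authors' deposited series table they were 1 with Solvents B and C, with array weights 6 with Solvent A, and with session as a random block 5 with Solvent C. The test of whether the strain difference itself varied with the vehicle called 1 of 15 probes, against 0.296% of all. This was Cry1 (adjusted p = 0.0372), whose difference under Solvent B was -0.17 ± 0.16. For Dbp that test gave an adjusted p of 0.939 and for Npas2 0.514. The call of Cry1 was lost without any 1 of 9 arrays, 4 of them the Solvent B arrays, and in the authors' deposited series table.

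**Figure D4:**
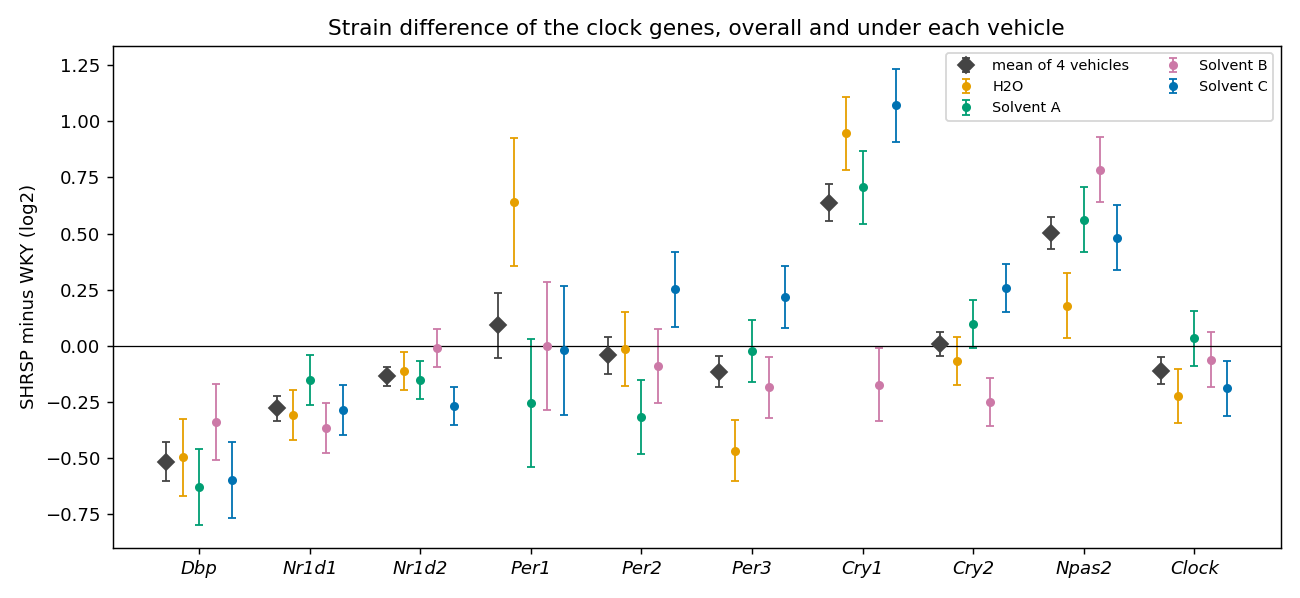
SHRSP minus WKY (log2, points, with standard errors as bars) for the brightest probe of each clock gene, averaged over the 4 vehicles (diamonds, 8 arrays against 8) and under each vehicle (circles, 2 against 2). Dbp is below 0 and Npas2 above 0 under every vehicle, and Cry1 is above 0 under all but Solvent B.

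The third comparison was each drug against its vehicle, averaged over both strains, 4 arrays against 4, and within each strain. Since no label pairs a drug with a vehicle, the pairs were taken from the scan sessions. Among SHRSP, the chlorothiazide animals alone share their code prefix with the animals of their vehicle. Among WKY, all but the enalapril and carvedilol animals do. Code prefix and drug cannot be told apart elsewhere. Candesartan (Solvent A), chlorothiazide (Solvent B) and carvedilol (Solvent C) shared a session with their vehicle in both strains. The limma fit called no clock gene probe for any of them. For candesartan the count was 0 of 15, against 0.052% of all probes, with 1 at an unadjusted p under 0.05, against 550 of all 24993. It was 0 in SHRSP and 0 in WKY, against 0.044% and 0.056%. For chlorothiazide it was 0, against 0.112%, and 0 in each strain, against 0.048% and 0.052%. Over both strains 2 were at an unadjusted p under 0.05, against 1403 of all 24993. For carvedilol the count of called probes was 0, against 0.148%, and 0 in each strain, against 0.168% and 0.12%. Over both strains 5 were at an unadjusted p under 0.05, against 2048 of all 24993. With session as a random block 1 probe was called for carvedilol, Cry1 (adjusted p = 0.049), and with session as a fixed block the dimmer Per2 probe (adjusted p = 0.029). In WKY both blocks called the dimmer Per2 probe (-0.77, adjusted p = 0.0154 and 0.00209), and so did array weights. That probe was flagged good on 1 of the 2 WKY carvedilol arrays. The brighter Per2 probe had WKY means of 3.52 with carvedilol and 3.83 with Solvent C. Set against the mean of all 4 vehicles in place of their own, these drugs would have given 5, 8 and 8 called probes, an alternative chosen after seeing the data.

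For Dbp, the changes with candesartan and chlorothiazide were small beside the difference between Solvents B and C. Dbp with candesartan differed by 0.14 ± 0.12 and with chlorothiazide by 0.06 ± 0.12. The largest chlorothiazide change was that of Cry1, 0.28 ± 0.12, with WKY arrays at 2.89 and 2.80 against 2.19 and 2.46 with Solvent B. With candesartan it was Npas2, at -0.26 ± 0.10. With carvedilol, Cry1 stood lower by 0.50 ± 0.12 (adjusted p = 0.0823), at 2.00 and 1.78 against 2.66 and 2.50 in SHRSP and at 1.10 and 1.30 against 1.46 and 1.56 in WKY. The groups did not overlap in either strain. Dbp with carvedilol was 3.89 and 3.91 against 3.32 and 3.36 in SHRSP, and 3.52 and 3.39 against 3.83 and 4.04 in WKY. Its change was 0.56 ± 0.17 in SHRSP and -0.48 ± 0.17 in WKY. The difference between these changes, 1.05 ± 0.24, was not called (adjusted p = 0.134). The first Nr1d2 probe had changes of 0.37 ± 0.08 and -0.13 ± 0.08 and Npas2 of -0.48 ± 0.14 and 0.12 ± 0.14, which were not called either.

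Enalapril was set against H2O. In SHRSP both groups were scanned in session 1, and in WKY 1 of the 2 enalapril arrays was. The SHRSP arrays of both groups were on slides of the same series. In WKY the enalapril arrays were on another slide series than the H2O arrays, so drug and slide series cannot be told apart there. Averaged over strains, 4 of 15 probes were called, against 2.09% of all probes: Dbp (-0.47 ± 0.12, adjusted p = 0.0411), the brighter Per2 probe (-0.44 ± 0.12, adjusted p = 0.0487), Npas2 (0.42 ± 0.10, adjusted p = 0.0329) and the second Nr1d2 probe (0.21 ± 0.05, adjusted p = 0.0385). The dimmer Per2 probe was not called, with means of -0.57 against -0.43 with H2O in SHRSP and -0.16 against -0.38 in WKY. Nor was the first Nr1d2 probe, which was lower, at 4.782 against 4.915 and 4.818 against 5.029. In SHRSP, Dbp read 4.01 and 3.85 with enalapril and 4.46 and 4.65 with H2O. The brighter Per2 probe read 3.99 and 3.96 against 4.41 and 4.53. Neither probe overlapped between the groups. In WKY, Dbp read 4.47 and 4.98 against 5.17 and 4.93, which overlapped. The brighter Per2 probe read 4.06 and 4.11 against 4.48 and 4.48 there, which did not. Within a strain 0 probes were called, against 0.98% of all probes in SHRSP and 6.38% in WKY. At an unadjusted p under 0.05 there were 6 of 15 in SHRSP, against 2817 of all 24993 probes. In WKY there were 4, against 5238. Fitting session as a fixed block called 2 in SHRSP, Dbp and the brighter Per2 probe. In WKY that fit rests on enalapril replicate 1 alone, with changes of 0.61 for Npas2 and 0.32 for the second Nr1d2 probe. In WKY, Npas2 and the second Nr1d2 probe were called without quantile normalization, and Npas2 alone in the authors' deposited series table. Alas2 was lower by 0.96 in SHRSP, and Umod was higher by 0.66 in WKY, both called, and their part was not tested. Array weights, or a fit on the compared groups alone, left 0 called. Leaving out 1 array left 0 to 3, with 0 for SHRSP H2O replicate 2, WKY H2O replicate 1, either SHRSP enalapril array and WKY enalapril replicate 1. Of the other genes of the loop, 0 of 10 partners and 1 of 11 output genes (Nampt, -0.42, which makes a precursor of NAD) were called.

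Amlodipine and hydralazine were compared with H2O although no array of theirs shared its session or slide series, so drug, session and slide series cannot be told apart. Amlodipine gave 5 of 15 called probes, against 31.4% of all probes, a share near the background. They were Per3 (0.41 ± 0.10), the dim Clock probe (good on 1 of 4 H2O arrays and on 0 in WKY, so given no size), the brighter Per2 probe (0.35 ± 0.12) and 2 Nr1d2 probes that went opposite ways (-0.17 ± 0.06 and 0.16 ± 0.05). In SHRSP 2 of 15 were called, against 20.3%, and in WKY 0, against 15.6%. At an unadjusted p under 0.05 there were 3 in WKY, against 7278 of all 24993 probes. Per3 in SHRSP read 1.35 and 1.69 with amlodipine and 0.83 and 1.00 with H2O, without overlap. Dbp (0.18 ± 0.12) and Npas2 (-0.09 ± 0.10) were not called. With each array left out in turn, calls were lost over strains and in SHRSP.

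Hydralazine gave 6 of 15, against 29.1% of all probes. The dimmer Per2 probe (0.54 ± 0.11), Dbp (0.44 ± 0.12), the dim Clock probe, with the same limit in H2O, Per3 (0.28 ± 0.10) and the second Nr1d2 probe (0.24 ± 0.05) were higher, and Npas2 (-0.42 ± 0.10) lower. The brighter probes of Per2 and Clock and the first Nr1d2 probe were not called. The Per2 means were 4.61 against 4.47 with H2O in SHRSP and 4.69 against 4.48 in WKY. Those of Nr1d2 were 4.885 against 4.915 and 5.145 against 5.029, and those of Clock 0.27 against 0.09 and 0.10 against 0.31. In SHRSP 2 of 15 probes were called, against 15.6%, and in WKY 4, against 15.3%. Leaving out 1 array left 1 to 3 in SHRSP, with 1 for H2O replicate 2 and hydralazine replicate 1. In WKY it left 0 for replicate 1 of either group, 2 for H2O replicate 2 and 4 for hydralazine replicate 2. In WKY, Dbp read 5.59 and 5.62 with hydralazine and 5.17 and 4.93 with H2O, and Npas2 0.92 and 1.35 against 1.76 and 1.65. Bmal1 was lower with both drugs on its brighter probe, by 0.35 and by 0.71. Its dimmer probe was not called for either and was higher with amlodipine. The means of that probe were 1.28 in SHRSP and 0.62 in WKY with amlodipine, against 0.92 and 0.43 with H2O. With hydralazine they were 0.92 and 0.34. With session as a term of the fit, 0 probes were called for amlodipine and 1 for hydralazine, the second Nr1d2 probe. As a fixed term, the session of H2O was linked to those of both drugs only through the WKY enalapril pair of arrays. The red cell gene Alas2 was also lower with amlodipine (-0.77) and hydralazine (-0.47). Its intensity was 3.16 to 3.29 with amlodipine, 3.66 to 4.31 with hydralazine and 5.46 to 9.60 with H2O in SHRSP, and 3.12 to 4.27, 3.89 to 5.18 and 4.26 to 5.24 in WKY. Of the fat genes, Cidec was lower with amlodipine (-0.36). The summed intensity of both was 35.3 to 37.5, 40.4 to 41.7 and 41.1 to 50.9 in SHRSP and 38.7 to 43.7, 43.4 to 46.5 and 49.5 to 56.4 in WKY, in the same order. Of the 6 kidney segment genes, Umod was higher with amlodipine (0.99) and hydralazine (0.90), more than any clock gene probe, Slc12a3 was lower (-0.33 and -0.24), and Lrp2 was lower with hydralazine (-0.24), all called. The part of these genes in the clock gene changes was not tested.

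Whether a drug's effect differed between the strains was tested on the difference itself. The limma fit called 0 of 15 probes for candesartan, chlorothiazide, carvedilol, enalapril, amlodipine and hydralazine, against 0.016%, 0.004%, 0.068%, 2.83%, 0.396% and 0.372% of all probes. At an unadjusted p under 0.05 there were 0, 0, 5, 0, 1 and 4 of the 15 probes. Among all 24993 probes there were 828, 718, 1634, 4407, 2368 and 2638 in the same order.

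**Figure D5:**
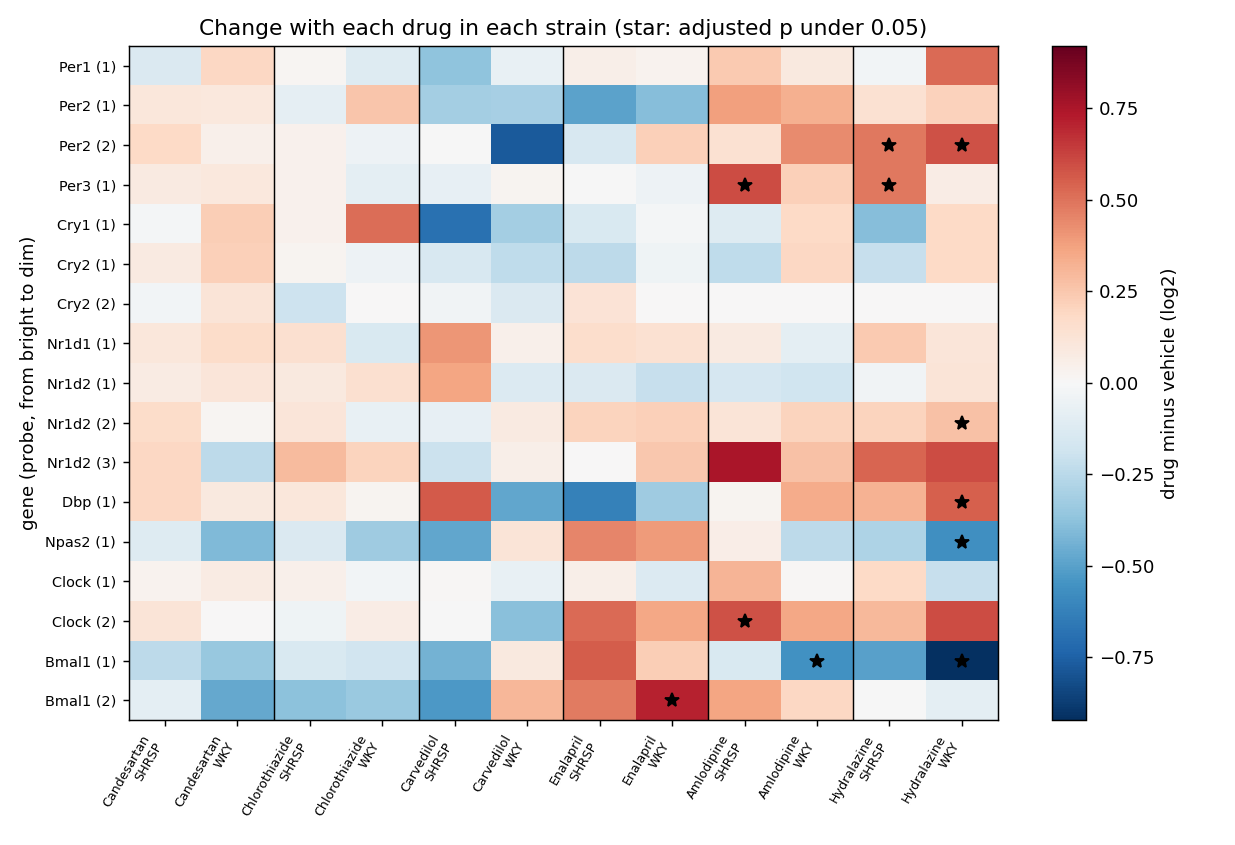
Change with each drug against its vehicle (log2, colour) in each strain, 2 arrays against 2, for the 15 clock gene probes and the Bmal1 probes, numbered from bright to dim. Stars mark adjusted p under 0.05. The first 3 drugs, scanned with their vehicles, carry no star, and the stars of the 15 probes lie with amlodipine and hydralazine, scanned apart from H2O.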

How the data were processed

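Kidney RNA of 40 samples was measured on CodeLink rat arrays, as the labels state. Per the file headers, the deposited files hold a normalised intensity and a flag per probe, and no source used here describes that normalization. Array medians were 1 in these files, and 9269 intensities were 0 or below. Intensities were quantile normalised, floored at 0.38 (the 1st percentile of intensities with a good flag, as a median over arrays) and put on the log2 scale. Of the probes, 16753 had 1 symbol, 165 several and 16931 none, and 1 symbol was updated through RefSeq. Probes with a value in every group and good flags on both arrays of any group were tested. The fit was that of limma 3.58.1 (R 4.3.3), with a mean for each group over all 40 arrays, which leaves 20 residual degrees of freedom. H2O was assumed as the vehicle of amlodipine and hydralazine. Every probe of the 10 genes is named, the brightest first. For the other lists, 1 probe a gene was used. The genes, lists and tests were chosen with earlier results of these data known. The replicates of a group are other animals by their labels, and animals may have been pooled. Of 780 array pairs 0 were identical. The code was tested on simulated data. Python 3.11.15, NumPy 2.4.6, pandas 2.3.3 and Matplotlib 3.10.9 were also used. Alternatives were array weights, normexp, no quantile normalization, the authors' deposited series table, no filter, only probes flagged good throughout, session as a random block (estimated correlation 0.462) or fixed block, trended and robust eBayes, the compared groups alone, POOR spots left out, pooled vehicles and each array left out.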

Additional observations from a re-analysis of the deposited data

Results flagged for a closer look

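The dimmest Cry2 probe (GE1153172) read -0.97 on replicate 1 of WKY Solvent A, apart from the other 7 WKY vehicle arrays, the nearest of which was at -1.25. Its gap was 0.659 of the range of the 8 arrays, above Dixon's critical value for 8. Of 30 such sets examined this was the only one, and chance flags about 1 in 20. The probe was at the floor on 26 of the 40 arrays. The strain difference of Cry1 varied with the vehicle (adjusted p = 0.0372), with values of 0.95, 0.71 and 1.07 under H2O, Solvent A and Solvent C and of -0.17 under Solvent B.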

How the results depend on the processing

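The count of 6 probes for strain stayed within 5 to 7 under every alternative run, and Cry1, Dbp, Npas2 and Nr1d1 kept their calls under all of them. Over the vehicles, 12 probes became 4 with session as a random block (Dbp, Npas2, the first Nr1d2 probe and the brighter Per2 probe) and 11 to 13 without 1 array. With vehicles pooled, candesartan, chlorothiazide and carvedilol gave 5, 8 and 8, and carvedilol gave 1 with session as a random or fixed block. For enalapril the count of 4 became 2 in the authors' deposited table and without the filter, 0 with array weights and with the compared groups alone, and 0 to 3 without 1 array. For amlodipine the count of 5 became 3 without quantile normalization and on probes flagged good throughout, 2 with the compared groups alone, 0 with session as a random or fixed block, and 1 to 5 without 1 array. For hydralazine the count of 6 became 3 on probes flagged good throughout, 1 with session as a random or fixed block, 2 with array weights and with the compared groups alone, and 5 to 7 without 1 array. The strain by vehicle count of 1 became 0 without quantile normalization, in the authors' table and with the compared groups alone, and 0 to 1 without 1 array. The test of enalapril between strains gave 0 to 1 without 1 array. With session as a fixed block the direction turned for the brighter Per2 probe with amlodipine (-0.28) and, with hydralazine, for Dbp (-0.0723), Npas2 (0.11) and the dimmer Per2 probe (-0.25, in SHRSP -0.30, in WKY -0.20). In that fit the session of H2O was linked to those of both drugs only through the WKY enalapril pair of arrays. These values therefore depend on that pair, and what set its 2 arrays apart was not tested. A lone array was assumed to vary like the other groups. Slide series as a block could not be run as a fixed term, since it is aliased with the groups. No paired analysis was possible because the labels give no replicate numbers. Precision is limited by having 2 arrays a group, and 26 of 40 arrays were at the floor for the dimmest Cry2 probe.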
